A study of Mus musculus with 8 samples.

Results

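The 10 genes described here, Sox8, Sox9, Sox10, Foxd3, Tfap2a, Tfap2b, Tfap2c, Ets1, Sox5 and Sox6, encode transcription factors grouped here as neural crest specifiers. They were picked by symbol from an expression table of 55421 gene identifiers. No rule on measured values was used, but earlier results of these data were known when they were chosen. All 10 were found, and all 10 were among the 15717 genes whose mean level over the 8 libraries was at least 1 TPM and which were tested. TPM is a transcript level scaled by gene length and library total. Every member was read in every library, at no less than 4.22 TPM.

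The libraries came from the vagal region of mouse embryos on embryonic day 9.5, the tissue at the level of the most rostral somites. The mutant group, called trex, has 4 libraries of Rdh10(trex/trex) embryos, which carry the trex allele of Rdh10 on both chromosomes. The other 4 came from embryos labelled wt, and the replicate label numbers the libraries 1 to 4 in each group, although the titles number the wt libraries 5 to 8, in the same order as wt replicates 1 to 4 here. No other allele, agent or strain is labelled in either group. The trex allele is known as a point mutation found in a chemical mutagenesis screen, and Rdh10 makes retinaldehyde, the precursor of retinoic acid. Whether a library holds 1 embryo or several, and whether litters differ, is not given in the sources used here, so the p-values measure the spread between these libraries, which may be partly technical.

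The neural crest arises at the border of the neural plate, leaves the dorsal neural tube and forms peripheral neurons, glia, pigment cells and much of the head mesenchyme. Border genes such as Msx1, Pax3 and Zic1 come first in the crest gene network, the specifiers described here follow, and they in turn act on genes of delamination and of each derivative. At vagal levels the crest also supplies the enteric nervous system and part of the cardiac outflow tract. Each of these factors also works outside the crest, for example Sox9 in sclerotome, Ets1 in endothelium and Tfap2c in surface ectoderm. In pieces of whole tissue, fewer cells of a type and less RNA per cell cannot be told apart.

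Depth was between 20928971 and 23648645 whole reads recovered per library, and the members rested on 88 to 3942 reads each. Pearson correlations of log2(TPM + 1) ran from 0.944 between trex replicate 1 and a wt library to 0.988 between trex replicates 3 and 4. Each pair of libraries differed by more than sampling noise, with a chi-square per gene of at least 5.10. Trex replicate 1 lay apart from the other libraries on the first principal component, at -56.8 against -21.4 to -2.05 in trex replicates 2 to 4 and 21.3 to 28.0 in wt. The total of Y-linked genes was 162 TPM in wt replicate 2 and 158 TPM in wt replicate 3, and it did not exceed 0.0662 TPM elsewhere. The Rdh10 transcript itself stood at 106, 66.2, 62.7 and 69.0 TPM in trex libraries, against 38.8 ± 2.20 TPM in wt libraries (SD, n = 4), and since the allele need not lower the transcript this does not check the labels.

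Of the 10 specifier genes, 3 rose in trex embryos: Sox9, Sox5 and Sox6, with adjusted p-values below 0.05 in limma. None fell, and 7 were not called. Over all tested genes 8.71% were called, 4.94% higher and 3.77% lower. That is 777 genes higher and 592 lower, a split that became 633 and 739 after quantile normalization and 633 and 809 in voom. At an unadjusted p below 0.05, 8 members were higher and 0 lower, where 17.4% of all tested genes were higher and 29.0% passed in either direction. Limma voom on the recovered reads also called 3 higher and 0 lower. The median log2 difference was 0.47 over the members and 0.039 over all tested genes.

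The libraries did not overlap between genotypes for 7 of the 10 members, all higher in trex, whereas this held for 21.8% of tested genes in either direction, 12.9% higher and 8.95% lower. These were Sox9, Sox10, Foxd3, Tfap2a, Ets1, Sox5 and Sox6. Summed over the 10 genes, the level was 333.0 TPM in trex replicate 1 and at least 253.7 TPM in every trex library, against 218.6 to 231.4 TPM in wt libraries.

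The number of called members depended on which libraries were used. Without wt replicate 2 only Sox9 was called, and without trex replicate 1 Sox10 joined the 3. Without wt replicates 2 and 3, the libraries with Y-linked transcripts, 0 members were called and 3 had an unadjusted p below 0.05, in a test that called 8 of all genes. With sex as a covariate 0 were called and 4 had an unadjusted p below 0.05, in a test that called 39 of all genes. No trex library held Y-linked transcripts above the threshold, so a sex effect could not be estimated within trex. Both fits thus compare trex with wt replicates 1 and 4 and give the same estimate by construction. On the log2 scale it was 0.45 for Sox9, 0.48 for Sox5 and 0.61 for Sox6, against 0.47, 0.54 and 0.65 with all libraries.

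**Figure D1:**
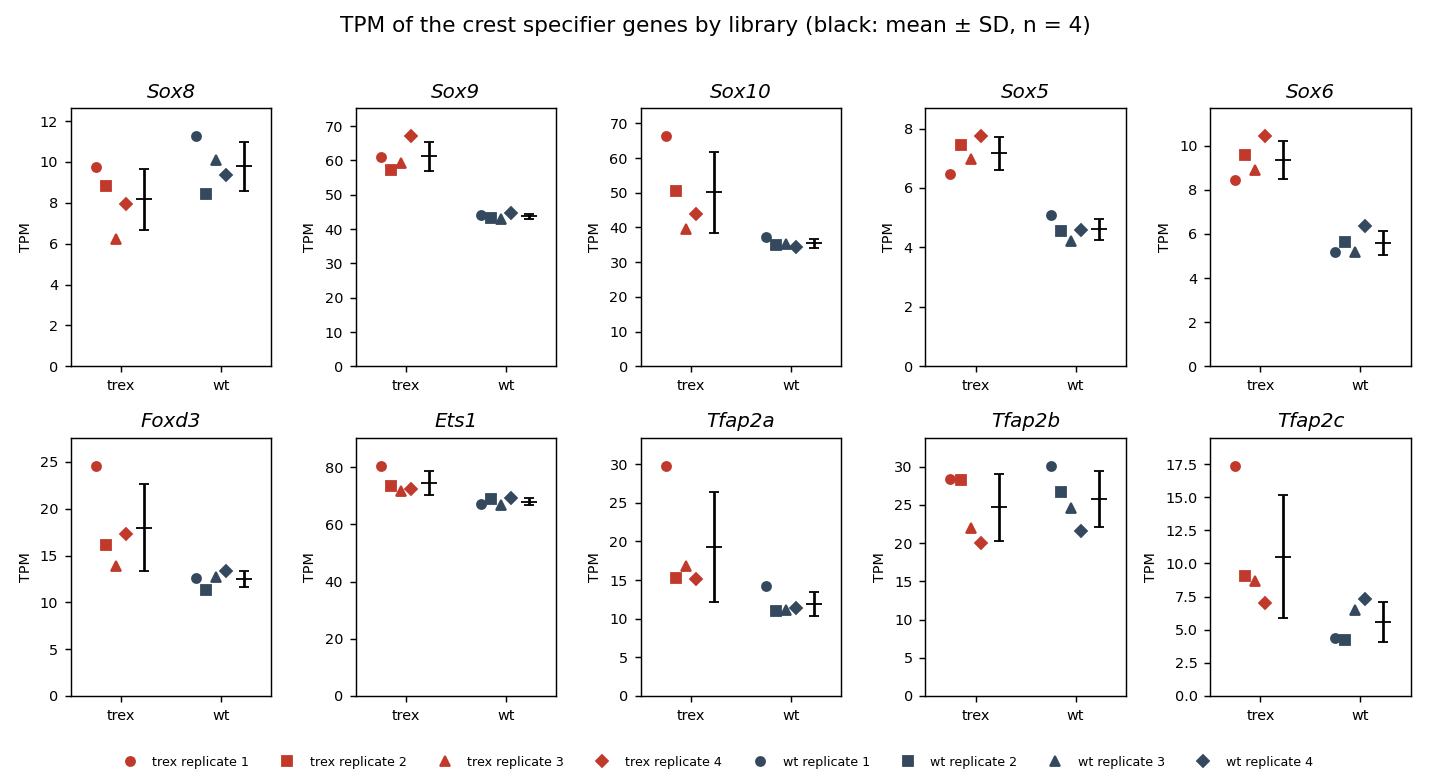
Level in TPM of each crest specifier gene in the 4 trex (red, left) and 4 wt (dark, right) libraries; marker shapes give the replicate, and the black bar is the mean ± SD of a group. Sox9, Sox5 and Sox6 form separate, narrow groups in trex and wt. Sox10, Foxd3, Tfap2a and Tfap2c spread more widely in trex, with trex replicate 1 the highest.

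The SoxE factors Sox8, Sox9 and Sox10 bind DNA through a shared HMG box and act in crest formation, survival and differentiation. Sox9 was the only one of them called. Sox9 (ENSMUSG00000000567, chromosome 11, 112782224 to 112787760, plus strand, mm10), which acts early in crest and later drives cartilage formation, stood at 61.1, 57.2, 59.1 and 67.1 TPM in trex replicates 1 to 4, against 44.0, 43.1, 42.9 and 44.7 TPM in wt replicates 1 to 4. The lowest trex library lay well above the highest wt library, and trex replicate 1 was not set apart. Sox9 rose 1.40-fold, to a mean of 61.2 ± 4.29 TPM in trex against 43.7 ± 0.86 TPM in wt (SD, n = 4 each), with a log2 difference of 0.47 ± 0.06 (SE) and an adjusted p of 0.00489. The call held without each library in turn, with an adjusted p of at most 0.0306.

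Sox10 (ENSMUSG00000033006, chromosome 15, 79154908 to 79165240, minus strand), which marks migrating crest and maintains its glial and enteric progenitors, stood at 66.4, 50.6, 39.6 and 43.9 TPM in trex libraries, against 37.2, 34.9, 35.3 and 34.4 TPM in wt libraries. All trex libraries lay above all wt libraries, but trex replicate 3 did so by little and trex replicate 1 was far above the rest. The log2 difference of 0.46 had a 95% interval of 0.15 to 0.78 and an adjusted p of 0.0732, so Sox10 was not called. Without trex replicate 1 the difference was 0.32 and the adjusted p 0.0439. The wt spread was small, with a coefficient of variation of 3.53%, against 23.5% in trex.

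Sox8 (ENSMUSG00000024176, chromosome 17, 25565892 to 25570686, minus strand), the third SoxE gene, stood at 9.73, 8.81, 6.23 and 7.92 TPM in trex libraries, against 11.3, 8.43, 10.1 and 9.38 TPM in wt libraries. The groups overlapped, and the log2 difference of -0.24 was not called (95% interval -0.56 to 0.07, adjusted p = 0.275). Leaving out trex replicate 3 gave -0.13, and array weights gave -0.47 and called Sox8 lower (adjusted p = 0.0106). An antisense gene, 2810468N07Rik, shares 329 exonic bases with Sox8, 10.6% of its exonic length. Its own level was between 7.12 and 12.2 TPM in trex and between 5.996 and 8.75 TPM in wt. The strand setting of the counting is not given in the sources used here, so reads of the pair in that stretch cannot be told apart.

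The SoxD factors Sox5 and Sox6 have an HMG box but no activation domain of their own. They modulate the action of SoxE proteins, and in cartilage they work together with Sox9. Both rose. Sox5 (ENSMUSG00000041540, chromosome 6, 143828425 to 144781977, minus strand) stood at 6.48, 7.43, 6.99 and 7.75 TPM in trex libraries, against 5.08, 4.54, 4.22 and 4.59 TPM in wt libraries. The groups were separate, and trex replicate 1 was the lowest of its group. Sox5 was 1.56-fold higher in trex, with a log2 difference of 0.54 ± 0.10 (SE) and an adjusted p of 0.0180. The call was lost without trex replicate 4, wt replicate 2 or wt replicate 3, with adjusted p-values of 0.0625, 0.0731 and 0.0607.

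Sox6 (ENSMUSG00000051910, chromosome 7, 115470872 to 116038796, minus strand) stood at 8.43, 9.60, 8.91 and 10.4 TPM in trex libraries, against 5.19, 5.63, 5.16 and 6.36 TPM in wt libraries. Again the groups were separate and trex replicate 1 was the lowest trex library. Sox6 was 1.67-fold higher in trex, with a log2 difference of 0.65 ± 0.10 (SE) and an adjusted p of 0.0121. Without wt replicate 2 the adjusted p was 0.0521. Sox5 and Sox6 have exonic lengths of 14376 and 14832 bases over all annotated transcripts, so their TPM values rest on more reads (354 to 909) than those of shorter genes at the same level. Transcripts that start at different promoters are summed in this table.

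Because Sox5 and Sox6 moved together, 3 of their annotated start regions are shown, 1 of Sox5 and the most upstream 2 of Sox6, each from 250 bases before to 50 after a start site. The Sox5 window, the only one held for that gene, lies inside the gene. It is far from the upstream end of Sox5 at 144781977, so it is not the counterpart of the Sox6 windows. The sequences are RefSeq's on GRCm38.p6, and capitals mark the core letters bound by Sox proteins (ACAAT) or the half-site of retinoic acid receptors (AGGTCA), searched on both strands.
Sox5, chr6:143947057-143947356, minus strand: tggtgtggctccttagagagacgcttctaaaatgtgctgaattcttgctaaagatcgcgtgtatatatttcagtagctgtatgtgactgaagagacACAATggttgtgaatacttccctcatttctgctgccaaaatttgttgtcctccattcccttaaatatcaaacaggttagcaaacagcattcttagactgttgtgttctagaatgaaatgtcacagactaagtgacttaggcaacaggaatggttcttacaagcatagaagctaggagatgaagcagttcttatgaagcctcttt
Sox6, chr7:116038695-116038994, minus strand: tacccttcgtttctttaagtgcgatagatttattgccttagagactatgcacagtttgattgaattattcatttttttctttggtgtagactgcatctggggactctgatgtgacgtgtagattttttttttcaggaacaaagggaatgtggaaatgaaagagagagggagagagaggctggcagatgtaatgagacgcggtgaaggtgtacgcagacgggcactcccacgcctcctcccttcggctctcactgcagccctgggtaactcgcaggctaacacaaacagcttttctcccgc
Sox6, chr7:116030998-116031297, minus strand: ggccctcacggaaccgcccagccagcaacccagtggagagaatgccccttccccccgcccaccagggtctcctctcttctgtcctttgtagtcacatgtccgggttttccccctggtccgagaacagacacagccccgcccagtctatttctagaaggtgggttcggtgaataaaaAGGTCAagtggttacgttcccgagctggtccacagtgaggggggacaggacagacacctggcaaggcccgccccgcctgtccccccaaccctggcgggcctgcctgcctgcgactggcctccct

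The Sox5 window holds 1 Sox core, 154 bases before the start site. The most upstream Sox6 window holds neither motif, and the next holds 1 receptor half-site, 74 bases before the start site. Of the other 4 Sox6 windows, not shown, 3 hold Sox cores and 1 a half-site. Of 32851 promoter windows in the RefSeq table, 31.0% hold a Sox core and 16.3% a half-site, so neither match stands out from the rest. The table held 12 windows for 6 of the 10 members, and an AP-2 site (GCCNNNGGC) was in 0 of the 12 and in 16.6% of all windows. A match of letters is a description and not a bound site.

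Foxd3 (ENSMUSG00000067261, chromosome 4, 99656299 to 99658622, plus strand), a forkhead repressor of premigratory and early migrating crest that holds crest cells in a multipotent state, stood at 24.6, 16.1, 13.9 and 17.3 TPM in trex libraries, against 12.6, 11.3, 12.7 and 13.3 TPM in wt libraries. The groups did not overlap, but trex replicate 3 lay just above wt replicate 4, and after quantile normalization it lay below it. The log2 difference was 0.47, with a 95% interval of 0.12 to 0.82 and an adjusted p of 0.0928, and Foxd3 was not called under any of 23 alternatives. Without trex replicate 1 the difference was 0.31 and the adjusted p 0.0659.

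Ets1 (ENSMUSG00000032035, chromosome 9, 32636221 to 32757820, plus strand), an ETS factor of cranial and cardiac crest and of endothelium, was the most abundant member in every library. It stood at 80.6, 73.6, 71.6 and 72.4 TPM in trex libraries, against 67.2, 68.8, 66.8 and 69.1 TPM in wt libraries. The 2 groups were separate by a narrow margin, and they overlapped after median-of-ratios rescaling. The log2 difference of 0.13 was small, with a 95% interval of 0.02 to 0.24, and was not called (adjusted p = 0.123).

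The AP-2 factors Tfap2a, Tfap2b and Tfap2c act at the neural plate border and in the early crest, and Tfap2a and Tfap2c also in surface ectoderm. Tfap2a (ENSMUSG00000021359, chromosome 13, 40715302 to 40738376, minus strand) stood at 29.8, 15.3, 16.8 and 15.1 TPM in trex libraries, against 14.3, 10.97, 11.2 and 11.4 TPM in wt libraries. Trex replicate 1 held 1.90 times the mean of the other trex libraries, which lay close together above wt replicate 1. The log2 difference was 0.59, with a 95% interval of 0.13 to 1.06 and an adjusted p of 0.103. Without trex replicate 1 it was 0.37, with an adjusted p of 0.0518.

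Tfap2c (ENSMUSG00000028640, chromosome 2, 172549593 to 172558622, plus strand) stood at 17.4, 9.02, 8.66 and 6.99 TPM in trex libraries, against 4.402, 4.22, 6.47 and 7.30 TPM in wt libraries. Trex replicate 4 lay below wt replicate 4, so the groups overlapped. Its log2 difference of 0.76 had a 95% interval of 0.15 to 1.36, the widest of the members, and an adjusted p of 0.109. Without trex replicate 1 it was 0.51, with an adjusted p of 0.126, and so below the 0.70 of Sox6.

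Tfap2b (ENSMUSG00000025927, chromosome 1, 19208914 to 19238576, plus strand), which also marks some dorsal interneurons and kidney epithelium, stood at 28.5, 28.3, 22.0 and 19.97 TPM in trex libraries, against 30.2, 26.7, 24.6 and 21.5 TPM in wt libraries. The groups covered nearly the same range. The log2 difference was -0.07, with a 95% interval of -0.38 to 0.25 and an adjusted p of 0.779, and its sign turned in 3 alternatives. Tfap2b is also the member on the same chromosome as Rdh10, 3.10 Mb away. The remaining AP-2 genes were scarcely read, with Tfap2e at no more than 0.265 TPM in any library and Tfap2d at 0 in every library but trex replicate 1.

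**Figure D2:**
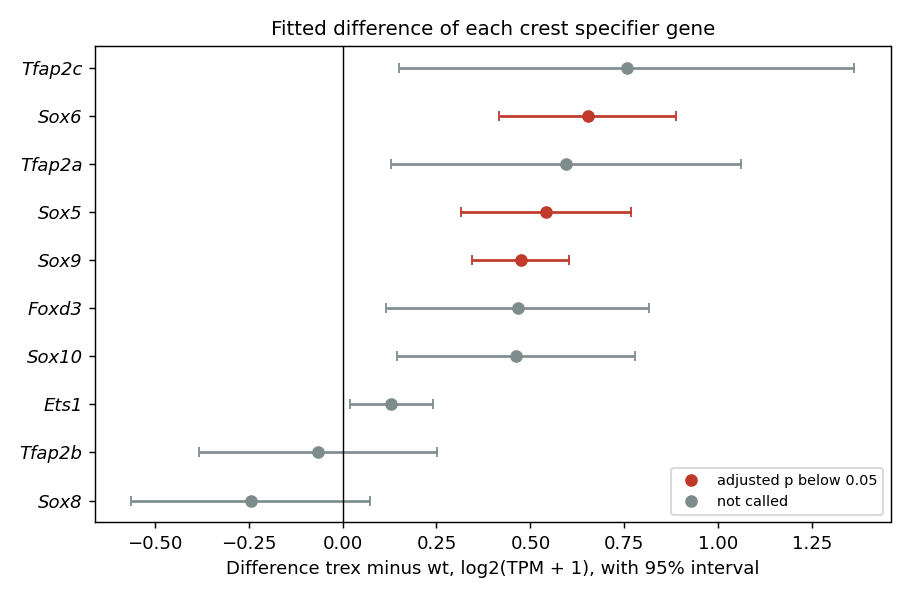
Fitted difference of each member (trex minus wt, log2(TPM + 1)) with its 95% interval; red points have an adjusted p below 0.05 over all tested genes. The intervals of 8 members lie above 0, those of Sox8 and Tfap2b include 0, and the intervals of Tfap2c, Tfap2a, Foxd3 and Sox10 are wide.

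The order of the levels was nearly the same in both genotypes. Ets1 came first, Sox9 next, then Sox10 and Tfap2b, and Sox5 was last. In trex the ranges of neighbours in this order overlapped, save between Ets1 and Sox9 and between Sox10 and Tfap2b. In wt the ranges of Foxd3 and Tfap2a, of Tfap2a and Sox8 and of Tfap2c and Sox6 overlapped, and the other neighbours were separate. Sox8 came seventh in wt and ninth in trex.

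The members differed in how the trex libraries were ordered. Trex replicate 1 was the highest trex library for 7 members, where this held for 44.5% of tested genes, and trex replicate 4 for the 3 called members Sox9, Sox5 and Sox6. Trex replicate 1 was the highest of all 8 libraries for Sox10, Foxd3, Tfap2a, Tfap2c and Ets1, 5 members, where this held for 38.2% of tested genes. Relative to the mean of trex replicates 2 to 4, it held 2.11 times as much Tfap2c, 1.90 times Tfap2a, 1.56 times Foxd3 and 1.49 times Sox10. For Sox9 that quotient was 0.999, and for Sox5 and Sox6 it was 0.876 and 0.873. Low oxygen and glycolysis genes also varied among these libraries. Their average log2(TPM + 1) was 8.42, 6.74, 7.64 and 8.09 in trex replicates 1 to 4, against 6.18 to 6.31 in wt. Their part in the members' levels was not tested.

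**Figure D3:**
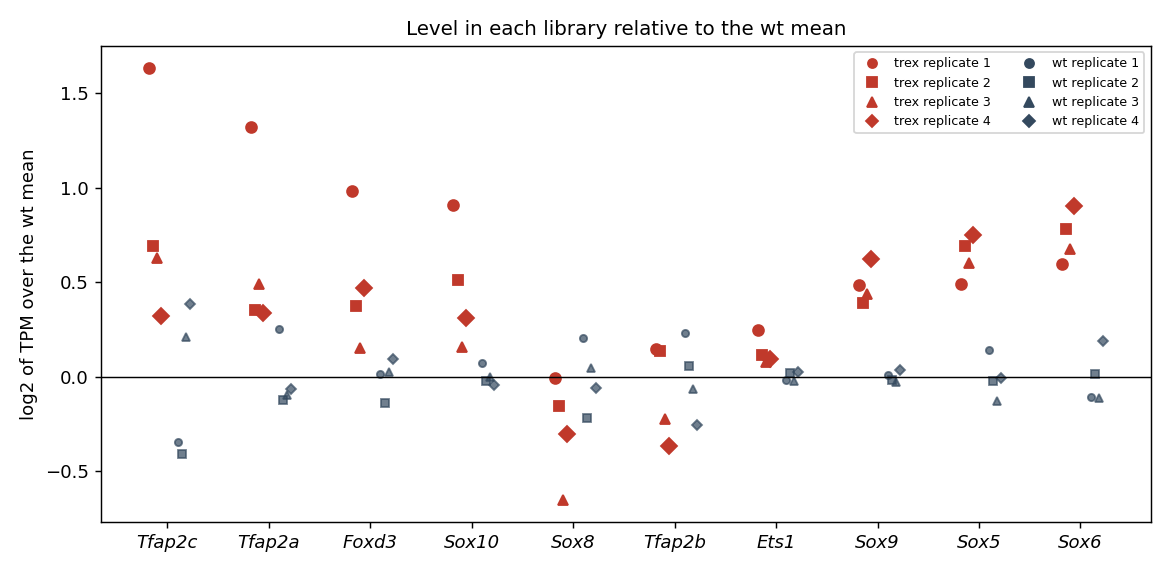
Level of each member in each library as log2 of its TPM over the wt mean of that gene, with trex (red) left of wt (dark); marker shapes give the replicate. The circle, trex replicate 1, stands above the other trex libraries for Tfap2c, Tfap2a, Foxd3 and Sox10, and lies low among them for Sox5 and Sox6.

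A ratio of 2 genes within a library does not depend on how libraries are scaled. Of 8 ratios between members, tested by exact two-sided permutation over the 70 assignments, 2 reached p = 0.0286, the smallest that 4 against 4 allows. Neither passed adjustment over the 8 (0.114 each), which would have needed most of the 8 ratios at that smallest p. The ratio of Sox10 to Sox8 was 6.82, 5.74, 6.35 and 5.54 in trex libraries, against 3.30, 4.14, 3.49 and 3.66 in wt libraries. The ranges were separate, and trex replicate 1 did not stand out. The log2 difference of that ratio was 0.74 ± 0.10 (SE, n = 4 each).

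The ratio of Tfap2b to Tfap2a was 0.953, 1.85, 1.31 and 1.32 in trex libraries, against 2.12, 2.44, 2.20 and 1.89 in wt libraries, with a log2 difference of -0.70 ± 0.21 (SE). Tfap2b was thus more abundant than Tfap2a in all 4 wt libraries and in 3 of the 4 trex libraries. The ratio of Foxd3 to Sox10 varied little, between 0.319 and 0.394 in trex and between 0.324 and 0.388 in wt. Its log2 difference was 0.03 ± 0.09 (SE), with an exact p of 0.800. The ratio of Sox5 to Sox6 lay between 0.742 and 0.784 in trex and between 0.721 and 0.980 in wt (exact p = 0.343).

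The ratio of Sox10 to Sox9 averaged -0.31 ± 0.35 on the log2 scale in trex and -0.30 ± 0.06 in wt (SD, n = 4 each), and the difference of -0.01 ± 0.18 (SE) was not larger than the spread (exact p = 1.00). The ratio itself was 1.09 in trex replicate 1 and 0.654 in trex replicate 4, a wider range than the 0.768 to 0.846 of wt. The ratio of Ets1 to Sox10 was lower in trex by 0.34 on the log2 scale (exact p = 0.0571, adjusted 0.152). The exact p was 0.314 for Tfap2a to Sox10 and 0.457 for Tfap2c to Tfap2a.

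**Figure D4:**
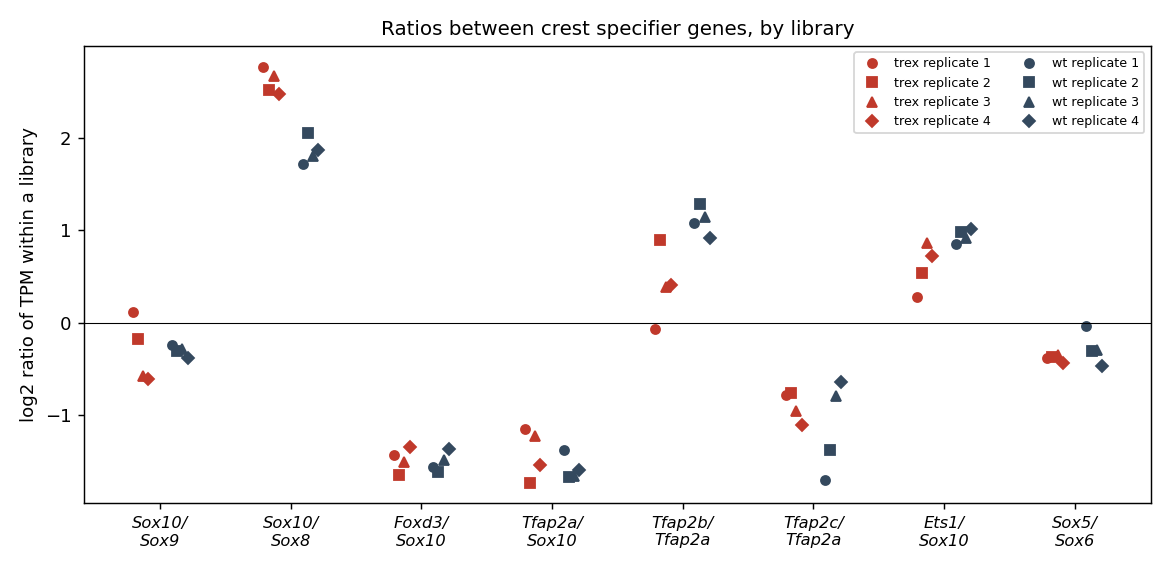
Log2 ratio of the TPM of 2 members within each library, for the 8 pairs tested; trex libraries (red) are left of wt (dark) and marker shapes give the replicate. Sox10 to Sox8 and Tfap2b to Tfap2a separate the genotypes, Foxd3 to Sox10 stays within -1.65 to -1.34 in every library, and Sox10 to Sox9 spreads from -0.61 to 0.12 in trex.

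The border genes upstream of the specifiers moved both ways. Of 14 tested, 3 rose, 3 fell and 8 were not called, with a median log2 difference of 0.21. Pax7, of the dorsal neural tube and crest, fell to 5.04 ± 0.49 TPM in trex, against 12.8 ± 1.63 TPM in wt. Dlx5, of the border and the pharyngeal arches, rose to 9.39 ± 2.65 TPM, against 4.09 ± 0.41 TPM in wt, and the Notch target Hes1 to 97.5 ± 12.3 TPM, against 66.7 ± 4.83 TPM in wt. Pax7 was called without each library in turn, Dlx5 in 7 of those 8 tests and Hes1 in 5. The other called genes, named after their values were seen, were Msx2 (higher) and Zic1 and Gbx2 (lower). Between 1 and 7 genes were called without each library in turn, the fewest without wt replicate 2.

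Genes of delamination were next. Of 10 tested, 4 rose, 1 fell and 5 were not called, with a median of 0.12. The mesenchymal factor Twist1 rose to 330.3 ± 11.2 TPM in trex, against 255.0 ± 8.98 TPM in wt. Snai2 and Snai1, repressors of cadherins, rose to 61.2 ± 14.0 and 97.3 ± 6.96 TPM in trex, against 33.1 ± 2.04 and 81.2 ± 3.11 TPM in wt. The other called genes, named after their values were seen, were the cadherin gene Cdh6 (higher) and Rhob (lower). Between 1 and 5 genes were called without each library in turn, with Twist1 called in all 8 tests, Snai2 in 7 and Snai1 in 2.

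Genes of cells that carry Sox10 come next in the network. Of 10 tested genes of Sox10-expressing crest and its glial, pigment and enteric derivatives, 0 rose, 4 fell and 6 were not called. At an unadjusted p below 0.05 in limma 2 were higher and 4 lower, and voom called 0 higher and 4 lower. Their median log2 difference was 0.02. Ednrb, the endothelin receptor of migrating crest, fell to 51.6 ± 6.47 TPM in trex, against 82.5 ± 7.45 TPM in wt, with an adjusted p of 0.00916. The neurotrophin receptor gene Ngfr fell to 50.4 ± 6.98 TPM, against 70.1 ± 4.98 TPM in wt. Fabp7, which neural progenitors also express and which is named after its values were seen, fell too. Leaving out each library in turn gave between 1 and 5 called genes. Ednrb was called in all 8 of these tests and Ngfr in 3. Without trex replicate 1, where Sox10 itself was called, 1 gene of the list was called higher and 4 lower.

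Among the uncalled genes of that list were Kit, Mitf and Erbb3, also named after their values were seen. Kit and Mitf, which pigment cell precursors express, were the 2 higher at an unadjusted p below 0.05 in limma. Kit stood at 22.3 ± 9.26 TPM in trex, against 13.4 ± 0.95 TPM in wt (adjusted p = 0.106). Mitf stood at 3.71 ± 0.35 TPM in trex, against 2.74 ± 0.39 TPM in wt (adjusted p = 0.125). For both, all trex libraries lay above all wt libraries, and trex replicate 1 was the highest. The neuregulin receptor gene Erbb3 stood at 37.8, 23.6, 23.5 and 20.02 TPM in trex libraries, against 25.1, 23.1, 25.0 and 26.4 TPM in wt libraries (adjusted p = 0.910). Trex replicate 1 was the highest of the 8 libraries, as it was for Sox10 and for 38.2% of all tested genes.

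Genes of crest-derived mesenchyme moved both ways, 3 of 9 tested rising and 1 falling, with a median of 0.04. The homeobox gene Alx1 rose to 15.5 ± 2.13 TPM in trex, against 8.12 ± 1.08 TPM in wt, and Prrx2 to 120.3 ± 7.56 TPM, against 100.5 ± 2.02 TPM in wt. Alx1 was called without each library in turn, and Prrx2 in 2 of those 8 tests. Hand2, named after its values were seen, was the third to rise. Among cartilage matrix genes activated by Sox9 with Sox5 and Sox6, 1 of 8 tested rose. All 8 had a positive difference, with a median of 0.36, where 8904 of all 15717 tested genes had a positive difference. The gene that rose was Col2a1, the type II collagen gene, at 138.7 ± 10.3 TPM in trex, against 109.4 ± 9.23 TPM in wt (adjusted p = 0.0293, and up to 0.0932 without single libraries). A further 5 genes of that list were below the filter.

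Among 5 tested genes of other AP-2 family members and partners, 2 rose and 0 fell, and at an unadjusted p below 0.05 in limma, as by voom, the counts were the same. Cited2, a co-activator of AP-2 proteins, rose to 213.0 ± 19.0 TPM in trex, against 143.3 ± 5.20 TPM in wt (adjusted p = 0.00441, at most 0.0278 without single libraries). Cited1 rose to 26.1 ± 4.53 TPM, against 16.1 ± 3.14 TPM in wt, but kept its call in only 3 of the 8 tests that leave out a library. The list then had 1 or 2 called genes. Of 11 other Sox genes tested, 0 rose and 2 fell, with 2 higher and 3 lower at an unadjusted p below 0.05 in limma, and 0 higher and 2 lower by voom. Sox3 and Sox21, SoxB genes of neural progenitors, fell to 32.5 ± 9.66 and 14.3 ± 3.50 TPM in trex, against 86.3 ± 9.97 and 24.1 ± 2.60 TPM in wt. Sox3 was called without each library in turn and Sox21 in 2 of those 8 tests, which called between 1 and 3 genes of the list. Of 12 other ETS genes 3 rose and 0 fell (6 and 0 at an unadjusted p below 0.05 in limma, 2 and 0 by voom). Ets2 rose to 56.7 ± 4.71 TPM, against 36.3 ± 3.25 TPM in wt, Etv2, which starts endothelial development, to 15.8 ± 2.15 TPM, against 9.34 ± 0.69 TPM in wt, and Elk3 1.16-fold. Without each library in turn between 1 (without wt replicate 2) and 5 (without trex replicate 1) of the ETS genes were called, Ets2 in all 8 tests, Etv2 in 7 and Elk3 in 2.

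Markers of other cells that carry the members also moved. Surface ectoderm and epithelial markers, beside Tfap2a and Tfap2c, had 3 of 11 called higher in limma and 1 in voom. All 11 had a positive difference, as had 8904 of all 15717 tested genes. The summed level of these markers ranged from 505.6 to 1098 TPM in trex and from 431.1 to 519.9 TPM in wt. Their mean log2 level was 5.69, 4.75, 5.15 and 5.17 in trex replicates 1 to 4. Trex replicate 1 was the highest trex library, as for Tfap2a, Tfap2c and 44.5% of all tested genes. The lowest was trex replicate 2 for the list, but trex replicate 4 for Tfap2a and Tfap2c. The keratin genes Krt8, Krt18 and Krt19 rose 2.22-fold, 1.89-fold and 5.12-fold. Without each library in turn between 0 and 3 of the list were called, Krt8 in 3 of the 8 tests, Krt19 in 2 and Krt18 in 1, and its part in the AP-2 levels was not tested.

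Endothelial markers, beside Ets1, had 2 of 12 called higher in limma, Cdh5 (1.29-fold) and Tek (1.46-fold), and 1 in voom. All 12 had a positive difference, as had 8904 of all 15717 tested genes, and some lay below the median of 0.039 over all tested genes. The markers summed to 515.8 to 639.0 TPM in trex and 458.8 to 484.6 TPM in wt. Between 0 and 6 were called without each library in turn, Cdh5 in 7 of the 8 tests and Tek in 3. Sclerotome markers, beside Sox9, had 2 of 8 called higher, Uncx (2.02-fold) and Foxc2 (1.57-fold), and a summed level of 196.1 to 270.9 TPM in trex and 172.4 to 190.4 TPM in wt. Trex replicate 1 was the lowest trex library for that sum, whereas for Sox9 it was the second highest. The markers did not share 1 order of libraries. Among trex libraries, Foxc2 was highest in trex replicate 1, at 68.2 TPM. Pax1, named after its values were seen, was lowest there, at 21.8 TPM. Between 0 and 2 sclerotome markers were called without each library in turn. The part of either list in Ets1 or Sox9 was not tested.

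Otic markers, beside the SoxE genes, were near 0 for the most part, with 3 of 8 tested and 0 called, 1 of them higher at an unadjusted p below 0.05 in limma and 0 by voom. Oc90 was at 0 in 7 libraries and Tectb in all 8. The list summed to 55.2 TPM in trex replicate 1 and at least 13.7 TPM in every trex library, against 9.45 to 13.2 TPM in wt, most of it Lmx1a, which the roof plate also makes. Pax8, Hmx2 and Hmx3, named after their values were seen, were also highest in trex replicate 1, at 9.52, 2.48 and 5.12 TPM. In the other libraries they did not exceed 3.47, 0.410 and 1.04 TPM. Pax2, likewise named, was highest in trex replicate 4, at 2.61 TPM. The part of otic tissue in the high Sox10 of trex replicate 1 was not tested.

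Muscle and neuron precursors and erythroid cells can also express Sox5 and Sox6. The muscle and neuron markers read here are largely of differentiating cells, so they do not measure those precursors. Of 8 tested muscle genes 5 fell and 0 rose (6 and 0 at an unadjusted p below 0.05 in limma, 3 and 0 by voom). The myogenic factor gene Myf6 fell to 2.26 ± 0.80 TPM in trex, against 8.11 ± 1.63 TPM in wt, the embryonic myosin gene Myh3 to 2.72 ± 1.88 TPM, against 23.7 ± 2.27 TPM in wt, and Tnnc2 to 4.23 ± 2.90 TPM, against 31.9 ± 2.53 TPM in wt. All 10 neuron genes tested fell, with a median log2 difference of -2.05. The neurofilament gene Nefm fell by 2.33 on the log2 scale. Nefl, another, and Dcx, of migrating neurons, fell to 22.5 ± 3.02 and 2.79 ± 1.39 TPM in trex, against 75.1 ± 25.1 and 15.6 ± 4.72 TPM in wt. The part of these cell types in Sox5 and Sox6 was not tested. Without each library in turn between 2 and 6 muscle genes and between 3 and 10 neuron genes were called.

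Of 10 erythroid markers 0 were called, as at an unadjusted p below 0.05 in limma and by voom, and they summed to 3058 to 15630 TPM in trex and 7106 to 15830 TPM in wt. Dorsal neural tube and interneuron genes, beside Tfap2b, moved both ways, with 2 of 10 rising and 3 falling in limma, 1 and 3 in voom, and a median of 0.04. Ptf1a, of dorsal interneurons, fell to 0.0853 ± 0.108 TPM in trex, against 2.20 ± 0.65 TPM in wt. It rested on 0, 1, 0 and 2 reads in trex libraries and on 14 to 24 reads in wt libraries. Its mean over the 8 libraries, 1.14 TPM, was just above the filter. The proneural gene Neurog1 fell to 12.6 ± 3.70 TPM, against 40.6 ± 10.2 TPM in wt, and Olig3 to 35.8 ± 4.92 TPM, against 55.4 ± 8.19 TPM in wt. Neurog2, another proneural gene, named after its values were seen, was not called (adjusted p = 0.353). It stood at 46.9 ± 7.59 TPM in trex, against 52.6 ± 5.71 TPM in wt. The genes that rose, Wnt3a and Lbx1, are named after their values were seen, and Lbx1 was not called when any library was left out. Without single libraries between 1 and 4 of the list were called.

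Liver markers differed between libraries of 1 group, at a mean log2 level of 0.79, 1.55, 3.54 and 4.56 in trex replicates 1 to 4 and 0.65, 0.49, 3.29 and 3.21 in wt replicates 1 to 4. None of 8 was called, as at an unadjusted p below 0.05 in limma and by voom. Of 10 low oxygen and glycolysis genes 7 rose and 0 fell (10 and 0 at an unadjusted p below 0.05 in limma, 6 and 0 by voom). Ldha, lactate dehydrogenase, rose 1.74-fold, Bnip3 4.48-fold and Egln3 5.66-fold, and between 0 and 10 were called without each library in turn, the fewest without wt replicate 2.

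**Figure D5:**
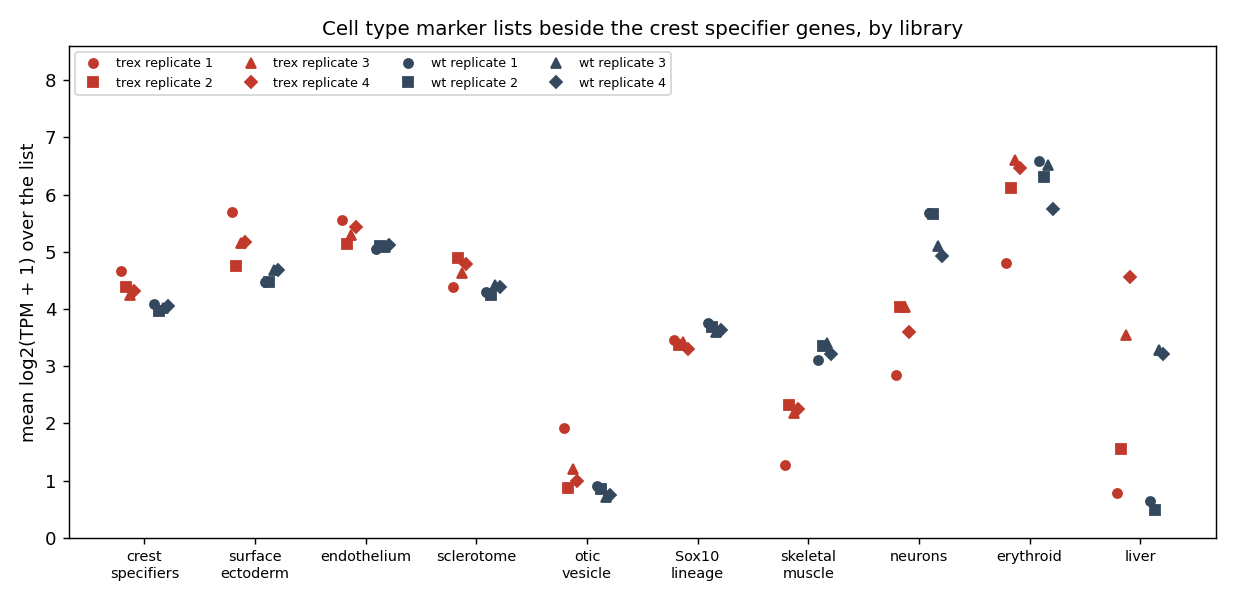
Mean log2(TPM + 1) over the crest specifier genes and over 9 lists of cell type markers, in each trex (red, left) and wt (dark, right) library; marker shapes give the replicate. The specifier mean is 4.24 to 4.67 in trex and 3.96 to 4.08 in wt; surface ectoderm is highest in trex replicate 1, while muscle and neuron markers are lower in all trex libraries than in all wt libraries.

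For the members whose log2 level ranged by at least 1 over the 8 libraries, Foxd3, Tfap2a and Tfap2c, the protein-coding genes of closest profile were sought among 13184 by the root mean square difference of centred log2(TPM + 1). Nearest to Foxd3 were Maml3 (0.069), Ror2 (0.070) and Gstm1 (0.074). Ror2, a Wnt receptor gene, stood at 96.6, 62.4, 60.0 and 73.4 TPM in trex libraries, against 53.2, 51.4, 58.0 and 56.5 TPM in wt libraries. Nearest to Tfap2a were Kit (0.074), Ppl (0.083) and Fmn1 (0.086). Kit, the receptor gene of pigment cell and blood precursors, stood at 36.1, 16.4, 18.6 and 18.1 TPM in trex libraries, against 14.7, 12.4, 13.1 and 13.5 TPM in wt libraries. Kit is also in the list of Sox10-expressing crest and its derivatives.

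Nearest to Tfap2c were Trp63 (0.158), Trim29 (0.176) and Ppargc1b (0.177), all at larger distances than those above. Trp63, the p63 factor of surface ectoderm, stood at 12.6, 7.04, 6.56 and 4.69 TPM in trex libraries, against 3.51, 3.95, 5.61 and 4.49 TPM in wt libraries. It is also in the surface ectoderm list, and like Tfap2c it overlapped between the genotypes. All of these profiles share the same 8 libraries, in which trex replicate 1 was the highest.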

How the data were processed

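RNA was measured by poly-A selected, strand-specific sequencing of 8 libraries, 4 trex and 4 wt, grouped by the genotype label. The deposited values are TPM, made by the authors. Tools named in the submitters' processing notes are STAR and CASAVA 1.8.2, with the build mm10. For the counter, its strand setting, the annotation and multi-mapped reads, the answer is not given in the sources used here. Each deposited column of TPM sums to 1000000.

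Of 55421 identifiers, 55154 matched a symbol. Coordinates and exonic lengths came from GENCODE M21 on the mm10 assembly, and promoter sequences from RefSeq (GRCm38.p6), which held 6 of the 10 members. TPM times exonic length gave whole reads within 0.001 for 98.7% to 98.9% of values below 200 reads. These recovered reads served to state depth and for 1 alternative. Without molecular identifiers, reads are not independent molecules.

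The test was limma 3.58.1 (R 4.3.3) on log2(TPM + 1) with eBayes and a mean-variance trend, two-sided, genotype as the only term, Benjamini-Hochberg over 15717 genes of mean TPM at least 1. Called means an adjusted p below 0.05, and every adjusted p is from this test unless another is named. Log2 differences on this scale understate changes of low genes, and folds are ratios of mean TPM. Ratios between members used exact permutation.

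The members, gene lists, ratios and rules were chosen with earlier results of these data known. The genes named are the members, Rdh10, up to 3 called genes of smallest p from each list, the 3 nearest profiles, and others said to be named after their values were seen; some genes under this rule are not reported here. Alternatives were other pseudocounts, filters, scalings, variance estimates, array weights, voom, a replicate block, sex and liver covariates and leaving out libraries.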

Additional observations from a re-analysis of the deposited data

Results flagged for a closer look

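Among 74 sets of 4 values (members, Rdh10, gene lists and ratios in each genotype), 6 had a highest or lowest library far from the other 3, where chance gives about 1 in 20 sets, and 4 of the 6 were trex replicate 1. Tfap2a stood at 29.8 TPM in trex replicate 1 and at 15.1 to 16.8 TPM in the other trex libraries. In wt, Tfap2a stood at 14.3 TPM in replicate 1 and at 10.97 to 11.4 TPM in the others. Rdh10 stood at 106 TPM in trex replicate 1, with 62.7 to 69.0 TPM in the other trex libraries. The mean log2 level of the delamination genes was 6.11 in trex replicate 1 (others 6.04 to 6.05), and that of muscle markers 1.28 (others 2.18 to 2.33). The mean log2 level of cartilage matrix genes was 2.85 in wt replicate 1 (others 2.74 to 2.75).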

How the results depend on the processing

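Over 23 alternatives for each member, no called difference changed direction. Sox9 was called in 21, Sox6 in 20 and Sox5 in 17, and the exceptions of Sox9 were the sex covariate and the test without the libraries with Y-linked transcripts. Between 1 and 4 members were called without each library in turn, and between 199 and 2926 of all genes. Array weights called 8 members and 5524 genes: besides the 3, Sox10, Tfap2a, Tfap2c and Ets1 were higher and Sox8 lower, with Sox10 at 0.22, Foxd3 at 0.23 and Ets1 at 0.08 on the log2 scale. The sex covariate called 0 members and 39 genes. The fit without wt replicates 2 and 3, which gives the same estimates by construction, called 0 members and 8 genes. No filter gave 694 genes, and the replicate block gave 687 genes and 2 members, Sox6 and Sox9, without Sox5 (adjusted p = 0.0597). The labels tie no number to a litter or batch. Same-numbered libraries had correlations of deviations from the group means of 0.162, -0.023, -0.004 and 0.252, of which 2 are the largest among all 16 pairs, and trex replicates 2 and 3 correlated best with other numbers (0.15 and 0.155). They were not treated as paired, since not every correlation was over 0.1. The sign-flip test of ratios within replicate numbers was not run, since 4 pairs cannot reach p below 0.05. Scaling moved the split of all calls from 777 higher and 592 lower to 633 and 739 (quantile) or 687 and 695 (median-of-ratios), and left 6 members without overlap in place of 7 in both, losing Foxd3 and Ets1 in that order. No ratio passed adjustment in any alternative, where passing again needed most of the 8 ratios at the smallest p that the design allows. The cause of these shifts was not tested. Members of few reads, such as Tfap2c with 88 in wt replicates 1 and 2, carry the most counting error.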
